A study of Arabidopsis thaliana with 24 samples.

Results

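COBL2, PGIP1, AGP4 and AT3G07010 are 4 Arabidopsis thaliana genes whose products act in the cell wall and whose transcript levels went in opposite directions with growth temperature: COBL2 was higher and the other 3 were lower at 27°C than at 17°C. They were selected on exactly that difference, so every 27°C against 17°C value of these 4 genes is given as a description, without a test. The array carried 22746 probe sets after controls were set aside, and each gene was read by 1 of them. They are 4 of 14107 genes that a probe set could be named for. All 4 were among the 57.1% of probe sets kept after a filter on low signals. The choice was by name and direction and had no numerical threshold. The platform annotation named the probe set of AT3G07010, while the other 3 took their locus from the probe-to-locus pairing in the study's supplementary table.

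The wall of a growing plant cell is a network of cellulose microfibrils embedded in pectin and hemicellulose, with glycoproteins among them. COBL2 (AT3G29810) is a membrane-anchored protein of the COBRA family and is needed for depositing crystalline cellulose in the mucilage of the Arabidopsis seed coat. PGIP1 (AT5G06860) is a leucine-rich repeat protein of the wall that inhibits fungal polygalacturonases, enzymes that cut pectin. AGP4 (AT5G10430) is a classical arabinogalactan protein, a heavily glycosylated, membrane-anchored protein, known in the Arabidopsis pistil for preventing further pollen tubes from being attracted to a fertilized ovule. AT3G07010 belongs to the pectate lyase family, whose enzymes cleave de-esterified pectin. COBL2 and AT3G07010 lie on chromosome 3, and PGIP1 and AGP4 lie on chromosome 5, where PGIP1 is next to its close relative PGIP2.

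Whole seedlings were germinated for 3 days at 22°C, grown for 7 days at 27°C or at 17°C in 12 hours of light and 12 hours of dark, and floated on liquid MS medium for 12 hours before the experiment. At dawn, total RNA was taken from seedlings without 4-thiouracil (time 0). The rest were given 4-thiouracil (4SU), a base analog that enters RNA as it is made, at 1.5 mM by the labels. RNA was taken again at the end of labeling, at 27°C after 1 hour and at 17°C after 2 hours, and was hybridized as total RNA and as 2 column fractions, the newly synthesized (NS) RNA that carried 4SU and the pre-existing (PE) RNA that did not. The 8 groups, of 3 biological replicates each, were therefore end total, time 0 total, NS and PE RNA at 27°C and the same at 17°C. No mutant, transgene or other agent entered the design. Temperature and labeling time cannot be told apart in NS and PE RNA, nor can temperature and the time after dawn in total RNA at the end of labeling. Seedlings sampled at the end had received 4SU and those of time 0 had not, so time after dawn and 4SU cannot be told apart in the comparison of end with time 0, which is called the morning change for short.

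Values are MAS5 signals, a relative brightness of a probe set on the array with no absolute unit. They are compared between arrays of the same probe set and not between genes. Median signals were 173 to 196 on the NS arrays, 121 to 142 on the PE arrays and 143 to 161 on the total RNA arrays, and replicate arrays of a group correlated with r = 0.959 to 0.987 on the log2 scale. In whole seedlings, fewer cells of a type and less RNA per cell cannot be told apart. The tissue named in the labels was checked by defining markers: RCA, the Rubisco activase gene of green tissue, lay between 15445 and 28124 on all 24 arrays, and PYK10, a β-glucosidase gene of roots, between 4909 and 17672. Of the markers set out for each organ, 1 of 6 leaf genes and 2 of 7 root genes had a kept and named probe set, and their log2 differences between 27°C and 17°C in total RNA at the end were 0.15 for RCA, −0.27 for PYK10 and 0.24 for the root hair expansin EXPA7, of which 0 were called by limma (0 also at an unadjusted p below 0.05). Of 4 pollen markers, 1 had a named probe set and 0 passed the filter. The named one was AT59, a pectate lyase gene of pollen, which stayed between 0.683 and 35.9 on all 24 arrays.

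COBL2, the gene that was higher at 27°C, had signals of 946, 1094 and 954 at the end of labeling at 27°C, against 180, 177 and 186 at 17°C. At time 0, before 4SU, the signals were 1156, 1142 and 978 at 27°C, against 220, 210 and 212 at 17°C. The lowest 27°C array thus stood far above the highest 17°C array at both times, and the 17°C replicates lay within 10 signal units of each other. The log2 difference, 27°C minus 17°C, was 2.46 ± 0.12 (SE, n = 3 each) at the end and 2.35 ± 0.12 at time 0. That at the end was a 5.50-fold higher level and rank 16 from the highest of all kept probe sets. Each SE of a log2 difference comes from the limma fit. It pools the spread over all groups fitted together and does not show the scatter of a single group.

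PGIP1 had signals of 328, 354 and 285 at the end of labeling at 27°C, against 1904, 1323 and 1269 at 17°C. At time 0 the signals were 930, 564 and 686 at 27°C, against 2200, 2393 and 3364 at 17°C. The replicates of this gene spread more widely than those of COBL2, yet the temperatures did not overlap at either time. The log2 difference, 27°C minus 17°C, was −2.20 ± 0.22 at the end (4.59-fold lower, rank 27 from the lowest) and −1.87 ± 0.22 at time 0.

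AGP4 had signals of 169, 216 and 278 at the end of labeling at 27°C, against 2399, 2357 and 1995 at 17°C. At time 0 the signals were 318, 578 and 192 at 27°C, against 3495, 2476 and 3923 at 17°C. Replicate 3 at 27°C was the lowest at time 0 and the highest at the end, so its order was the reverse of the other replicates. The log2 difference, 27°C minus 17°C, was −3.37 ± 0.31 at the end, a 10.4-fold lower level and rank 1 from the lowest of all kept probe sets, and −3.30 ± 0.31 at time 0.

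AT3G07010 had signals of 70.2, 50.2 and 90.3 at the end of labeling at 27°C, against 365, 261 and 254 at 17°C. At time 0 the signals were 140, 197 and 113 at 27°C, against 496, 608 and 670 at 17°C. The end total RNA at 27°C was close to the lowest level that passed the filter, 48.25. The log2 difference, 27°C minus 17°C, was −2.08 ± 0.24 at the end (4.24-fold lower, rank 35 from the lowest) and −2.01 ± 0.24 at time 0. Of all kept probe sets, 4.97% were called higher and 5.85% lower at 27°C at the end of labeling, and 10.7% higher and 12.1% lower at time 0; a call means an adjusted p below 0.01 by limma with Benjamini-Hochberg adjustment and a fold above 1.5. Nothing about the 4 genes is read from these shares, since the same contrast chose them.

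**Figure D1:**
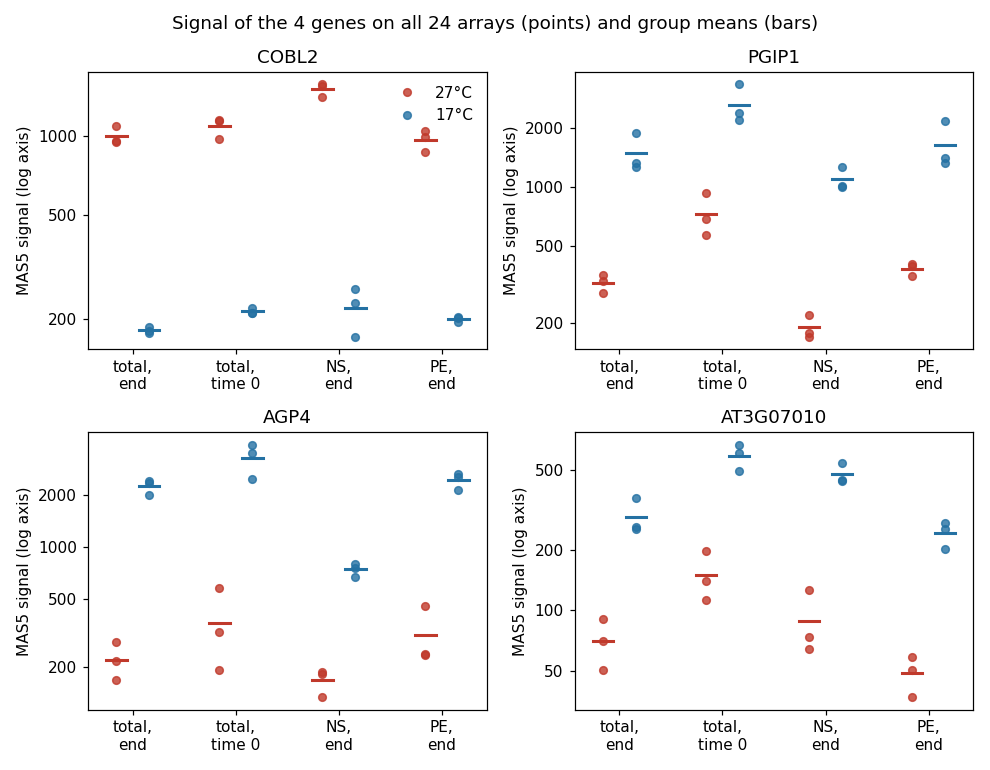
MAS5 signal (log axis) of the 4 genes on all 24 arrays, in total RNA at the end of labeling, total RNA at time 0, NS RNA and PE RNA; points are arrays, bars are group means of 3 replicates, red is 27°C and blue is 17°C. COBL2 lay higher at 27°C, for example 946 to 1094 against 177 to 186 in total RNA at the end, and the other 3 genes lay lower at 27°C in each kind of RNA.

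The same separation was present in both column fractions. COBL2 in NS RNA had signals of 1408, 1574 and 1550 at 27°C, against 260, 171 and 230 at 17°C. In PE RNA, COBL2 had signals of 869, 1046 and 994 at 27°C, against 203, 202 and 195 at 17°C. The log2 difference, 27°C minus 17°C, was 2.80 ± 0.16 in NS RNA and 2.27 ± 0.16 in PE RNA, so the distance between the temperatures was wider in the new RNA.

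PGIP1 in NS RNA had signals of 220, 170 and 179 at 27°C, against 1272, 1014 and 1003 at 17°C. In PE RNA, PGIP1 had signals of 390, 402 and 349 at 27°C, against 2186, 1320 and 1410 at 17°C. The log2 difference, 27°C minus 17°C, was −2.53 ± 0.19 in NS RNA and −2.07 ± 0.19 in PE RNA. As for COBL2, the value in new RNA was the farther from 0.

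AGP4 in NS RNA had signals of 134, 183 and 186 at 27°C, against 758, 798 and 667 at 17°C. In PE RNA, AGP4 had signals of 236, 237 and 453 at 27°C, against 2666, 2541 and 2147 at 17°C. For this gene the order was turned round, with a log2 difference, 27°C minus 17°C, of −2.16 ± 0.23 in NS RNA and −3.05 ± 0.23 in PE RNA. The signal was 4.45-fold lower at 27°C in new RNA and 8.31-fold lower in old RNA.

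AT3G07010 in NS RNA had signals of 64.3, 127 and 73.7 at 27°C, against 543, 445 and 444 at 17°C. In PE RNA, AT3G07010 had signals of 37.0, 58.7 and 50.7 at 27°C, against 202, 272 and 255 at 17°C. Both fractions gave a similar distance, with a log2 difference, 27°C minus 17°C, of −2.49 ± 0.24 in NS RNA and −2.33 ± 0.24 in PE RNA. Because the temperature contrast chose the genes, the differences between the fractions in it are also descriptions and were not tested.

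**Figure D2:**
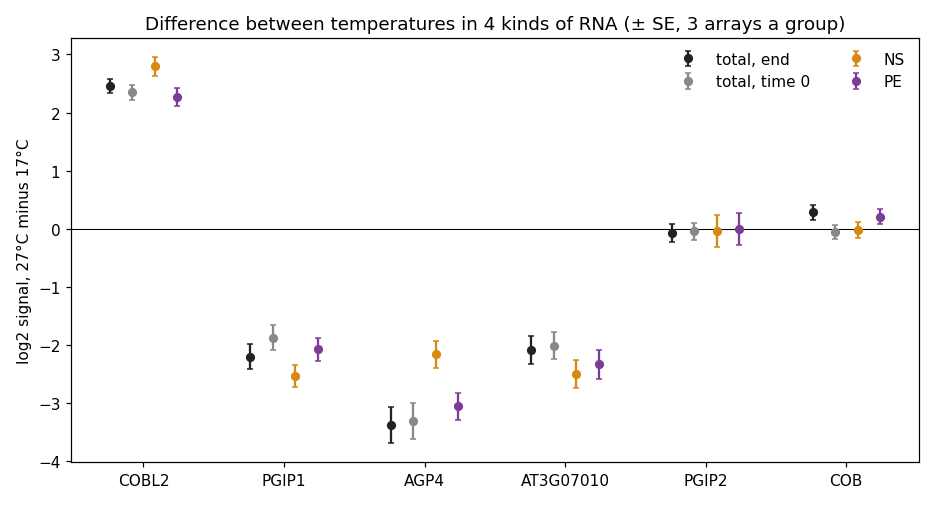
Difference in log2 signal, 27°C minus 17°C, of the 4 genes and of PGIP2 and COB in 4 kinds of RNA. Points are fitted differences and bars their SE, with 3 arrays a group and the spread pooled over the groups fitted together. COBL2 lay between 2.27 and 2.80, the other 3 chosen genes between −3.37 and −1.87, and PGIP2 between −0.07 and −0.01.

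The difference between the end of labeling and time 0 within 1 temperature was not itself used to choose the genes and was tested. It shares its arrays with the comparison of temperatures that chose them, so the test is not fully independent of the choice. PGIP1 and AT3G07010 were lower at the end of labeling than at time 0 at 27°C, AT3G07010 also at 17°C, and COBL2 and AGP4 were called at neither temperature. At 27°C, PGIP1 was 2.21-fold lower at the end of labeling than at time 0 (log2 difference −1.15 ± 0.22, adjusted p = 0.00077, limma), with no overlap between the 3 end arrays and the 3 time 0 arrays. AT3G07010 was 2.14-fold lower at the end at 27°C (−1.10 ± 0.24, adjusted p = 0.0022, limma), again with no overlap. Hence 2 of the 4 genes were called lower, against 14.5% of all kept probe sets called lower and 11.2% called higher in the same comparison.

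AGP4 at 27°C had a log2 difference, end minus time 0, of −0.60 ± 0.31 (adjusted p = 0.14, limma), and its arrays overlapped. Replicate 3 decided this value: without the 27°C arrays of replicate 3 it was −1.17 and passed the test (adjusted p = 0.0087, limma). COBL2 at 27°C had a log2 difference of −0.13 ± 0.12 (adjusted p = 0.43, limma), close to the median of all kept probe sets, −0.04. Its end and time 0 arrays overlapped, at 946 to 1094 against 978 to 1156.

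At 17°C, AT3G07010 was 2.03-fold lower at the end of labeling than at time 0 (log2 difference −1.02 ± 0.24, adjusted p = 0.0069, limma). PGIP1 had a log2 difference of −0.82 ± 0.22 and missed the threshold (adjusted p = 0.013, limma), although its end arrays, at 1269 to 1904, all lay below its time 0 arrays, at 2200 to 3364. AGP4 had −0.53 ± 0.31 (adjusted p = 0.24, limma) and COBL2 −0.24 ± 0.12 (adjusted p = 0.18, limma), also without overlap between the times. Thus 1 of the 4 genes was called lower, against 6.53% of all kept probe sets called lower and 5.79% called higher.

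The log2 morning change at 27°C minus that at 17°C was 0.11 for COBL2, −0.32 for PGIP1, −0.07 for AGP4 and −0.08 for AT3G07010. These differences also rest on the contrast of temperatures and were not tested. With the replicate number as a block, the morning calls of AT3G07010 were lost at both temperatures. The calls of AT3G07010 were lost without 27°C replicate 1 or 2 at 27°C (adjusted p = 0.017 and 0.039, limma) and without any 1 of the 17°C replicates at 17°C (0.010 to 0.090) or without 27°C replicate 1 (0.015), and that of PGIP1 at 27°C without 27°C replicate 1 or 3 (0.013 and 0.012).

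The position of a transcript between the NS and the PE fraction of the same seedlings was likewise not used to choose the genes. NS signals were above PE signals for most probe sets, with a median log2 difference, NS minus PE, of 0.37 at 27°C and 0.29 at 17°C, so that a value of 0 is already below the typical transcript. Of the 4 genes, PGIP1 at 27°C and AGP4 at 17°C lay farthest toward the old RNA, and AT3G07010 lay farthest toward the new RNA at both temperatures. At 27°C, COBL2 and AT3G07010 were called higher in NS than in PE RNA, and PGIP1 and AGP4 were called lower. In the same comparison 37.6% of all kept probe sets were called higher and 17.8% lower; after quantile normalization of the arrays 3120 were called higher and 2940 lower, against 4891 and 2311 without it.

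PGIP1 at 27°C had a log2 difference, NS minus PE, of −1.01 ± 0.19 (adjusted p = 0.00043, limma), a 2.02-fold lower signal in new RNA, and lay 1.38 below the median of all kept probe sets. This call held under each alternative setting that was tried. AGP4 at 27°C had a log2 difference of −0.82 ± 0.23 (adjusted p = 0.0063, limma), 1.19 below the median. Its call was lost without 27°C replicate 1 or 3 and without any 1 of the 17°C replicates, which enter through the shared estimate of the spread (adjusted p = 0.011 to 0.022, limma).

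COBL2 at 27°C had a log2 difference, NS minus PE, of 0.64 ± 0.16 (adjusted p = 0.0027, limma), 0.27 above the median of all kept probe sets, and 61.0% of them had a lower value. AT3G07010 at 27°C had 0.82 ± 0.24 (adjusted p = 0.009, limma), 0.45 above the median, and 68.1% of them had a lower value. Its PE signals at 27°C, 37.0 to 58.7, were near the lowest level of total RNA that passed the filter, 48.25. For both genes the arrays of the fractions did not overlap, yet neither lay at the edge of all probe sets. Either call was lost without any 1 of the 27°C replicates (adjusted p = 0.013 to 0.021, limma), and that of AT3G07010 also without any 1 of the 17°C replicates (0.012 to 0.017).

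At 17°C, AGP4 had a log2 difference, NS minus PE, of −1.72 ± 0.23 (adjusted p = 2.3e-05, limma), a 3.30-fold lower signal in new RNA and 2.02 below the median of all kept probe sets. A lower value was found in 5.16% of the kept probe sets, and the call held under each alternative setting that was tried. PGIP1 had −0.55 ± 0.19 and was not called (adjusted p = 0.021, limma), although its NS arrays, at 1003 to 1272, all lay below its PE arrays, at 1320 to 2186.

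AT3G07010 at 17°C had a log2 difference, NS minus PE, of 0.98 ± 0.24 (adjusted p = 0.0029, limma), 0.69 above the median of all kept probe sets. COBL2 had 0.12 ± 0.16 (adjusted p = 0.51, limma), and its NS arrays, at 171 to 260, overlapped its PE arrays, at 195 to 203. Hence 1 of the 4 genes was called higher and 1 lower, against 35.6% of all kept probe sets called higher and 21.7% lower; after quantile normalization 3428 were called higher and 3387 lower, against 4621 and 2823 without it. The call of AT3G07010 was lost without any 1 of the 17°C replicates (adjusted p = 0.011 to 0.048, limma), and the value of COBL2 turned to −0.35 after quantile normalization (adjusted p = 0.068, limma) and to −0.00017 without 17°C replicate 1.

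Markers of organs also differed between the fractions, and stand beside these values. PYK10 of roots was lower in NS than in PE RNA, with log2 differences of −1.46 at 27°C and −1.31 at 17°C (adjusted p = 1.6e-05 and 3.4e-05, limma). EXPA7 of root hairs had −0.85 at 27°C and −0.38 at 17°C (adjusted p = 0.0097 and 0.2), and RCA of green tissue had 0.16 and 0.29 (0.28 and 0.062). Both measured root genes of the list of 7 thus lay on the same side as AGP4 and PGIP1; the part of the organ in those 2 results was not tested.

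**Figure D3:**
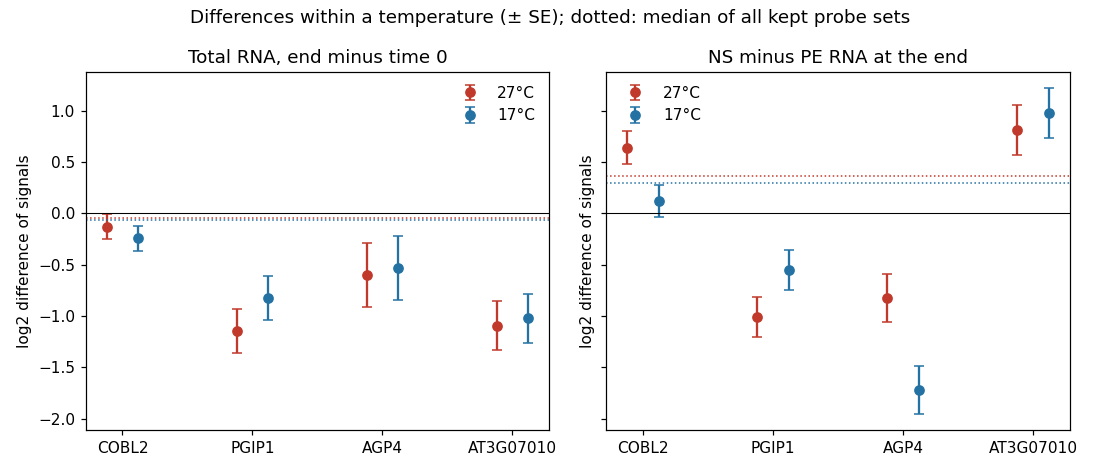
Log2 differences within a temperature for the 4 genes, end minus time 0 in total RNA on the left and NS minus PE RNA on the right, with SE bars, red for 27°C and blue for 17°C; dotted lines are the medians of all kept probe sets. PGIP1 and AT3G07010 lay at or below −0.82 in the morning change at both temperatures, and AGP4 lay lowest between the fractions at 17°C, at −1.72.

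The fractions were scaled to each other by the regression of PE over total RNA on NS over total RNA at each temperature, which gave a factor for NS RNA of 0.218 at 27°C and 0.134 at 17°C and for PE RNA of 0.770 and 0.848. From these, the new RNA of each gene was expressed as a percentage of its total RNA at the end of labeling. AGP4 had the smallest new share of the 4 genes at 17°C, 4.42% ± 0.160 (SD, n = 3), with 4.29% of all kept probe sets below it and a median of 15.9%. At 27°C, AGP4 had 16.8% ± 1.97, against a median of 26.0%.

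PGIP1 had a new share of 12.9% ± 2.18 at 27°C and 9.94% ± 0.869 at 17°C. COBL2 had 33.1% ± 2.11 at 27°C, above the median of 26.0%, and 16.3% ± 3.19 at 17°C, near the median of 15.9%. AT3G07010 had 31.0% ± 20.9 at 27°C, where replicate 2 gave 55.1% and the others 20.0% and 17.8%, and 22.1% ± 1.86 at 17°C. Since labeling was longer at 17°C, the shares of the temperatures are placed side by side and not compared.

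Half-life was calculated from the loss of pre-existing RNA since time 0, and the transcription rate from the amount of new RNA corrected for that loss, in microarray units per hour. Each replicate value matched an end array to the time 0 array of the same number, although whether the numbers pair these arrays was not settled. The replicate values, their SD and the number of probe sets with rates depend on this matching. Rates could be calculated in all 6 replicates for 6079 probe sets, among them 3 of the 4 genes. COBL2 had transcription rates of 399, 406 and 381 units per hour at 27°C, against 19.7, 12.7 and 17.4 at 17°C. The ratio of the mean rates, Q10, the change over 10 degrees, was 23.8 and ranked 1 of 6079, where the median was 3.45. It ranked 1 under each other setting too, except with the end level as the starting level, where it was 24.8 and ranked 9 of 7333.

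The half-life of COBL2 was 1.27, 1.99 and 2.82 hours at 27°C, against 5.64, 6.73 and 5.67 hours at 17°C. The means were 2.03 ± 0.779 hours at 27°C and 6.01 ± 0.620 hours at 17°C (SD, n = 3), and their ratio, the Q10 of decay, was 2.97, against a median of 2.99 over all probe sets with rates. This place in the middle depended on the starting level: when calculated from the end level the half-life at 17°C was 28.4 hours and the Q10 of decay was 11.5, above 93.2% of the probe sets.

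PGIP1 had transcription rates of 49.2 to 80.2 units per hour over the 3 replicates at 27°C, all below the 92.8 to 108 at 17°C. Its Q10 of transcription was 0.636, rank 3 from the lowest of 6079. Its half-life was 0.613, 1.16 and 0.739 hours at 27°C, against 8.09, 1.83 and 1.34 hours at 17°C, and the Q10 of decay was 4.49. The wide spread at 17°C came from replicate 1, the replicate with the lowest level at time 0 and the highest at the end, and without it the half-life at 17°C was 1.60 hours and the Q10 of decay 1.91, below the median and not above it. With the end level as the starting level the half-life of PGIP1 was 8.18 hours at 27°C and 27.4 hours at 17°C. Then 95.3% and 92.9% of the probe sets with rates had a shorter one, against 30.7% and 53.0% with the time 0 level.

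AT3G07010 had transcription rates of 28.1, 52.8 and 26.1 units per hour at 27°C, against 59.1, 46.5 and 49.6 at 17°C. The temperatures overlapped, and the Q10 of transcription was 0.689, rank 4 from the lowest. Its half-life was 0.520 ± 0.117 hours at 27°C and 1.32 ± 0.104 hours at 17°C (SD, n = 3); 5.79% and 3.78% of the probe sets with rates had a shorter one. With the end level as the starting level it was 2.75 hours at 27°C and 7.28 hours at 17°C, and 75.7% and 60.9% had a shorter one. The Q10 of decay was 2.54, not far from the median. This Q10 and the half-life at 27°C rest on PE signals of 37.0, 58.7 and 50.7 at 27°C. These are near the lowest level of total RNA that passed the filter, 48.25.

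AGP4 had no rate at 27°C in replicate 3, where the scaled PE signal was 182% of the time 0 signal, against 57.1% and 31.6% in replicates 1 and 2. Those 2 replicates gave 38.2 and 67.0 units per hour at 27°C. At 17°C the rates were 62.7, 57.3 and 64.1 units per hour, with half-lives of 3.18, 9.99 and 1.81 hours. Without the 27°C arrays of replicate 3, its Q10 was 0.758 for transcription and 5.13 for decay, from 2 replicates at 27°C.

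**Figure D4:**
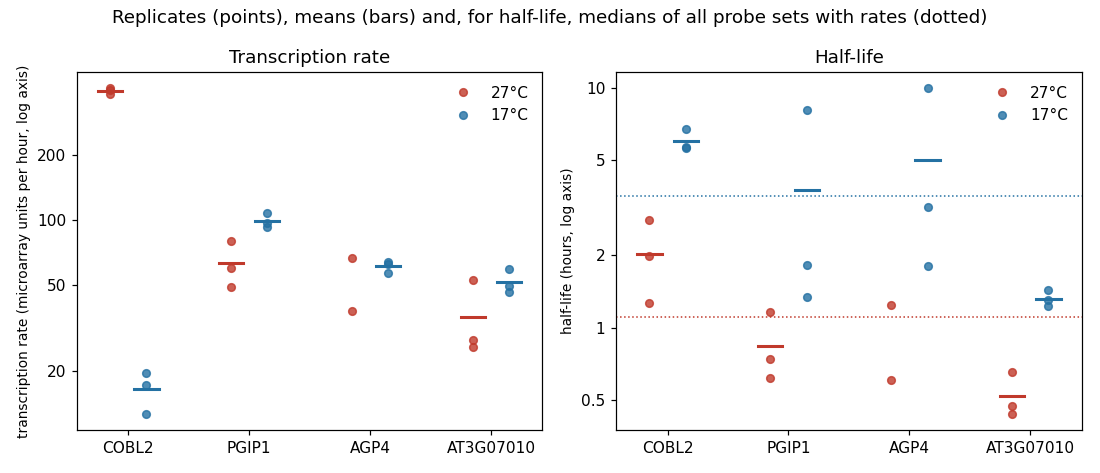
Transcription rate in microarray units per hour and half-life in hours (log axes) of the 4 genes, red for 27°C and blue for 17°C; points are replicates, bars are means of 3 replicates, and dotted lines are the median half-lives of 6079 probe sets with rates. COBL2 averaged a rate of 395 at 27°C and 16.6 at 17°C, while the mean rates of PGIP1 and AT3G07010 were the lower ones at 27°C; AGP4 has 2 points and no mean at 27°C.

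The relatives of the 4 genes were counted and tested in the same comparison of temperatures. Their lists were drawn up by gene family, but with earlier results of these data known. These tests are therefore not independent of the data. PGIP2, the neighbor and closest relative of PGIP1, had signals of 293, 240 and 239 at the end of labeling at 27°C, against 287, 281 and 242 at 17°C. Its log2 difference, 27°C minus 17°C, was −0.07 ± 0.15 (adjusted p = 0.77, limma), and it was not called. PGIP2 also had a Q10 of transcription of 3.26, near the median, with a mean rate of 107 at 27°C and 32.9 at 17°C. Whether transcripts of one PGIP gene also reached the probes of the other was not tested, since probe sequences were not used here.

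COB, the founding gene of the COBRA family, which orients cell expansion in roots, had signals of 2741, 2844 and 3079 at the end at 27°C, against 2481, 2371 and 2271 at 17°C. The arrays did not overlap, but the log2 difference of 0.28 ± 0.12 was not called (adjusted p = 0.11, limma). COBL7, the other member of this family with a kept and named probe set, had −0.54 ± 0.18 (adjusted p = 0.04, limma) and was not called. Of the 10 COBRA family loci other than COBL2, 2 could be measured and 0 were called by limma at the end or at time 0; at an unadjusted p below 0.05 there were 1 higher and 1 lower at the end and 0 at time 0.

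The pectate lyases were the family in which relatives moved with the member. Of 25 loci other than AT3G07010, 22 had a named probe set and 7 of these passed the filter; 5 of the 7 were called lower and 0 higher at 27°C at the end, against 5.85% lower and 4.97% higher among all kept probe sets. The median log2 difference of the 7 was −1.40, against −0.01 over all kept probe sets. AT5G48900 had signals of 292, 248 and 243 at 27°C, against 1341, 1457 and 1209 at 17°C (log2 difference −2.36 ± 0.35, adjusted p = 0.00036, limma). This is a distance of the same order as that of AT3G07010.

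AT4G24780 had signals of 475, 345 and 446 at the end at 27°C, against 1571, 1705 and 1607 at 17°C (log2 difference −1.96 ± 0.20, adjusted p = 1.4e-05, limma). AT3G53190 had 103, 106 and 176 at 27°C, against 344, 478 and 346 at 17°C (−1.63 ± 0.21, adjusted p = 0.00014, limma). None of these arrays overlapped between the temperatures. AT5G63180 and AT3G24670 were also called lower, with log2 differences of −1.40 and −0.85, while AT1G04680 had −0.14 (adjusted p = 0.7) and AT3G55140 0.00 (adjusted p = 0.99, limma).

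At time 0, 4 of the 7 pectate lyases were called lower and 0 higher, against 12.1% and 10.7% of all kept probe sets. In NS RNA 5 of 7 were called lower, against 5.81% of all kept probe sets. In PE RNA 5 of 7 were also called lower, against 5.49%; after quantile normalization 381 kept probe sets were called lower and 393 higher in PE RNA, against 714 and 441 without it. Like AT3G07010, 5 of the 7 were called higher in NS than in PE RNA at each temperature, against 37.6% at 27°C and 35.6% at 17°C.

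The pectate lyases differed in the direction of their morning change. At 27°C, 2 of the 7 pectate lyases were called higher at the end than at time 0 and 1 was called lower, against 11.2% and 14.5% of all kept probe sets. AT4G24780 had a log2 difference, end minus time 0, of 1.74 ± 0.20 at 27°C and 1.62 ± 0.20 at 17°C (adjusted p = 1.4e-05 and 5.4e-05, limma), where AT3G07010 fell at both temperatures. AT3G24670 had −0.64 ± 0.15 at 27°C (adjusted p = 0.003, limma), on the same side as AT3G07010. The difference between the genes in morning change was not tested.

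**Figure D5:**
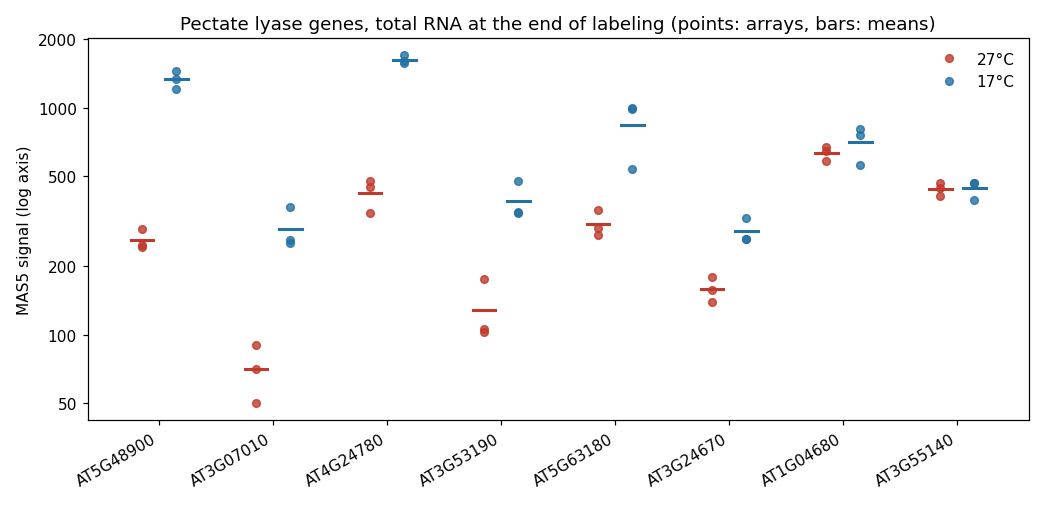
MAS5 signal (log axis) of AT3G07010 and 7 other pectate lyase genes in total RNA at the end of labeling; points are arrays, bars are means of 3 replicates, red is 27°C and blue is 17°C. AT3G07010 and the 5 relatives that were called lower have no array in common between the temperatures, and AT1G04680 and AT3G55140 overlap.

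Other wall families were represented by few measured probe sets. None of the 27 arabinogalactan protein loci other than AGP4 had a named and kept probe set, so the value of AGP4 stands without a relative. FLA13, a fasciclin-like arabinogalactan protein and the 1 measured of 14, went the other way to AGP4, with signals of 10177, 9898 and 8801 at the end at 27°C, against 3634, 3616 and 2997 at 17°C (log2 difference 1.50 ± 0.17, adjusted p = 4.6e-05, limma). Of 8 measured expansins, which loosen the wall, 2 were called lower and 0 higher at the end: EXPA15 at −1.29 ± 0.18 (adjusted p = 0.00025) and EXLB1 at −0.95 ± 0.21 (adjusted p = 0.005, limma).

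Of 6 measured XTH genes, which cut and rejoin xyloglucan, 2 of cellulose synthesis and 1 of pectin methylesterases and polygalacturonases, 0 were called at the end by limma, against 2 higher and 2 lower at an unadjusted p below 0.05. At time 0 the XTH gene XTH15 was called higher at 27°C (log2 difference 2.23 ± 0.29, adjusted p = 5.6e-05), as was the expansin-like gene EXLA1 (1.60 ± 0.25, adjusted p = 0.00021, limma); both are named after their values were seen. Over all wall families together, 28 probe sets other than those of the 4 genes were measured, of which 1 was called higher and 7 lower at the end, against 4.97% and 5.85% of all kept probe sets. At time 0 the counts were 3 higher and 7 lower, against 10.7% and 12.1% of all kept probe sets. Their median log2 difference was −0.11 at the end and −0.01 at time 0, and 5 of the 7 lower calls at the end came from the pectate lyases.

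The genes whose pattern was most like each member were taken by Pearson r over the 8 group means of log2 signal, from 7771 kept probe sets with 1 named gene. The 8 means come from the same seedlings at 2 temperatures, so r mostly follows the temperature difference that chose the member, and it is given without a p. For COBL2 they were AT1G70790 (r = 0.985), the ubiquitin-conjugating enzyme gene UBC17 (r = 0.980) and the calcium sensor gene CBL9 (r = 0.976). For PGIP1 they were AT1G66940 (r = 0.990), AT3G19390 (r = 0.982) and AN3 (r = 0.979), which encodes a transcriptional coactivator of leaf growth.

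For AGP4 the most alike were AT2G18360 (r = 0.989), the root hair gene RHS18 (r = 0.984) and AT5G15640 (r = 0.978). For AT3G07010 they were AT4G17245 (r = 0.989), AAH (r = 0.987), which encodes an enzyme of allantoate breakdown, and UGT76C2 (r = 0.984), which encodes a cytokinin glucosyltransferase. None of these 12 genes belongs to the wall families listed. Their own log2 differences, 27°C minus 17°C, at the end were smaller than those of the member they resemble, for example 1.25 for AT1G70790 and −1.54 for RHS18. Among the 4 genes themselves r was 0.95 between PGIP1 and AGP4, 0.88 between PGIP1 and AT3G07010 and 0.82 between AGP4 and AT3G07010, and −0.86 to −0.93 between COBL2 and the other 3, a sign that the choice of genes fixed.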

How the data were processed

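The authors processed 24 ATH1 arrays with MAS5 and deposited 1 linear intensity (signal) per probe set and array; the sources used here give no version of MAS5. Signals were used as deposited and on the log2 scale. The 64 control probe sets were left out of 22810, and the 57.1% with the highest minimum over the 12 total RNA arrays (at least 48.25) were kept, as many as passed the detection filter of the study, whose calls were not used here. Genes were named by the platform annotation (13436 probe sets) and otherwise by the study's probe-to-locus table, held in part (826 probe sets); 503 probe sets with several genes were left unnamed. The members and lists were chosen with earlier results of these data known.

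Total RNA arrays and fraction arrays were fitted separately with limma 3.58.1 in R 4.3.3 (lmFit, eBayes, group means), in place of the significance analysis named in the methods, with Benjamini-Hochberg adjustment over all kept probe sets. A call needs an adjusted p below 0.01 and a fold above 1.5. Half-lives and rates followed the equations of the methods. Both steps were tested on simulated data. Further genes were named by rule: PGIP2 and the measured COBRA family; up to 3 called genes of each other list with the largest difference; and the 3 most alike per member, so AT5G63180, AT3G24670, AT1G04680, AT3G55140 and the markers were added to complete their lists.

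NS and PE arrays of 1 replicate number come from 1 labeled RNA, and their deviations from the group means correlated (r = 0.151 to 0.211 at 27°C and 0.235 to 0.330 at 17°C), so the numbers pair them; with the replicate as a block no NS minus PE call of the 4 genes changed. Alternatives were no filter, a pseudocount of 16, quantile normalization, the block, each replicate left out, other thresholds and, for rates, other regressions and starting levels. Coordinates were used only for the chromosome and the neighbors of the 4 genes, and sequences were not used here. No array pair was identical (0 pairs). Precision is limited by 3 arrays a group. The labels give an age of 10 days and 1.5 mM 4SU at both temperatures, and these were followed. The study's methods state another age, and 4SU concentrations that differed between labeling times and temperatures.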

Additional observations from a re-analysis of the deposited data

How the results depend on the processing

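Without the filter, with more probe sets tested, the log2 values were as before but 7 calls were lost: NS minus PE of COBL2 (0.64), AGP4 (−0.82) and AT3G07010 (0.82) at 27°C and of AT3G07010 (0.98) at 17°C, and end minus time 0 of PGIP1 (−1.15) and AT3G07010 (−1.10) at 27°C and of AT3G07010 (−1.02) at 17°C. A fold above 2 removed the same 4 NS minus PE calls, at unchanged values. With an adjusted p below 0.05, or a pseudocount of 16, the morning change of PGIP1 at 17°C (−0.82 in both) was called, and the pseudocount lost NS minus PE of AT3G07010 at 27°C (0.65). Quantile normalization lost AT3G07010 in NS minus PE (0.49 at 27°C and 0.61 at 17°C) and in the morning at 17°C (−0.97), and turned the sign of COBL2 in NS minus PE at 17°C (−0.35), after moving the median NS minus PE of all kept probe sets from 0.37 to 0.06 at 27°C and from 0.29 to 0.05 at 17°C. The cause of the other losses was not tested. Between end and time 0, deviations of same-numbered total RNA arrays correlated weakly or not at all (r = 0.024 to 0.039 at 27°C and −0.005 to 0.16 at 17°C). Whether the numbers pair these arrays was thus not settled. With the replicate block the morning calls of AT3G07010 were absent at 27°C (−1.10, adjusted p = 0.013, limma) and 17°C (−1.02, adjusted p = 0.029, limma). Over all kept probe sets the calls at 27°C were then 1387 higher and 1773 lower, against 1460 and 1880. At 17°C they were 673 and 726, against 753 and 849. At 27°C every total RNA sample correlated best with its own number between times, and at 17°C not.

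Leaving out 1 replicate at a time gave NS minus PE of 0.62 to 0.67 for COBL2, −1.05 to −0.60 for AGP4 and 0.67 to 0.95 for AT3G07010 at 27°C, and of −0.00017 to 0.30 for COBL2 and 0.75 to 1.11 for AT3G07010 at 17°C. It gave a morning change of −1.38 to −0.97 for PGIP1, −1.17 to −0.19 for AGP4 and −1.49 to −0.66 for AT3G07010 at 27°C, and of −1.13 to −0.53 for PGIP1 and −1.31 to −0.83 for AT3G07010 at 17°C. The libraries whose absence changes a call are 27°C replicates 1, 2 and 3 and 17°C replicates 1, 2 and 3, each for the genes given with the results; PGIP1 at 17°C was called without 17°C replicate 1 (−1.13, adjusted p = 0.0094, limma). The temperature differences of the 4 genes at the end kept their direction in each of these fits. With the end level as the starting level, half-lives were 28.4 hours for COBL2 at 17°C and 2.75 and 7.28 hours for AT3G07010 at 27°C and 17°C; with 1 regression line per replicate the rate of COBL2 was 292 at 27°C and 12.0 at 17°C. AGP4 at 27°C gave a rate under the alternative without 27°C replicate 3 and under no other. The counts of the wall lists stayed within 1.5 times, with 5 to 9 calls lower at the end. Over all kept probe sets the lower calls at the end were 357 without the filter, 356 at a fold above 2 and 1152 at an adjusted p below 0.05, against 760; without 1 replicate they were 471 to 668.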

Other observations

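Of 29 named wall genes that did not pass the filter, 15 overlapped between the temperatures in total RNA at the end of labeling. Without overlap, 11 were lower and 3 were higher at 27°C. None of the 29 was in the comparison of kept probe sets. The share without overlap over all probe sets that did not pass was not determined, so nothing about wall genes is read from these counts. The genes that follow were chosen after their values were seen. XTH19, a xyloglucan-modifying enzyme gene, had signals of 81.5, 43.6 and 82.6 at 27°C, against 640, 992 and 498 at 17°C. The pectate lyase genes AT3G27400 and AT3G09540 had 30.1, 35.3 and 43.8 and 54.7, 72.0 and 76.0 at 27°C, against 135, 102 and 91.0 and 119, 137 and 140 at 17°C. EXPB3, an expansin gene, had 80.4, 55.4 and 82.3 at 27°C, against 211, 209 and 211 at 17°C. Among those higher at 27°C, AT5G09280, another pectate lyase gene, had 30.2, 25.4 and 15.1 at 27°C, against 1.82, 2.07 and 5.65 at 17°C, and EXLA3, an expansin-like gene, had 17.5, 20.0 and 32.8 at 27°C, against 3.48, 1.11 and 3.25 at 17°C. The signals given for AT5G09280 and EXLA3 all lay below the lowest minimum that passed the filter, 48.25. Those given for XTH19, AT3G27400, AT3G09540 and EXPB3 at 17°C lay above it.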
